A study of Mus musculus with 12 samples.

Results

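Sodium, calcium and pacemaker channels carry the inward currents of the heartbeat, and their genes were followed here in the adult left ventricle after deletion of Nkx2-5, a cardiac homeodomain transcription factor. The members are the 66 genes, measured by 101 probes, whose names on the array begin with Scn and a number (voltage-gated sodium channels), with Cacna, Cacnb or Cacng (voltage-gated calcium channels), with Hcn (pacemaker channels), or with Trpc, Trpm or Trpv and a number (TRP cation channels). They were taken from 34844 gene names and 55681 probes by name alone, without regard to level or change. RNA of 12 mice aged 6 months, 1 mouse for each one-colour Agilent array, came from the left ventricular wall with the apex and without the septum. The 3 groups of 4 were control, TrbE10 (Nkx2-5Δtrab in the labels) and TrbE14 (Nkx2-5Δcomp). Both mutants carried floxed Nkx2-5 and a tamoxifen-inducible Cre placed in the gene of connexin 40 (Gja5), which trabecular cardiomyocytes express in the embryo. Tamoxifen was given to the mothers at E10.5 and E11.5 for TrbE10 and at E13.5 and E14.5 for TrbE14, so that deletion began in the trabecular layer at an earlier or later stage. The labels describe the controls as not injected. The methods describe them as littermates of the mutants that carried the floxed Nkx2-5 allele and no Cre, so it is unclear whether they met tamoxifen. Pups were delivered by caesarean section and fostered by CD1 females.

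Voltage-gated sodium channels open first in the cardiac action potential and drive its upstroke and its spread from cell to cell. L-type calcium channels then sustain the plateau and trigger contraction, while T-type calcium channels and HCN channels act near the resting potential, in pacemaker and conduction cells and in the immature ventricle. Each sodium or calcium channel is a large pore subunit (alpha or alpha1) joined by auxiliary subunits (beta, alpha2-delta, gamma) that set its gating and its amount at the cell surface. TRP channels are cation channels opened by lipids, stretch, heat or emptied calcium stores.

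The processed signal of each array was quantile normalized, and all levels below are log2 values of that signal. Arrays correlated at 0.968 to 0.990 with each other. Nkx2-5 itself was lower on all 4 arrays of each mutant group, with a log2 difference of -0.66 (adjusted p = 0.0459) in TrbE10 and -0.59 (adjusted p = 0.106) in TrbE14. Control and TrbE14 arrays shared a slide, and all TrbE10 arrays lay on a second slide. Slide and group therefore cannot be told apart for TrbE10. TrbE14 was compared with control within a slide, where control arrays lay in row 1 and TrbE14 arrays in row 2. Row and group therefore cannot be told apart in that comparison. The tissue is a mixture of cells, and fewer cells of a type cannot be told apart from less RNA per cell. Nothing in the labels links samples across groups, and p-values measure the spread between these 12 hearts.

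Channel genes were detected unevenly across their families. A probe was kept when some group had 3 or more of its 4 arrays on which the scanner's software called the spot well above background. By this filter 34 of the 66 genes (46 of the 101 probes) were kept, 28 of them well above background on all 12 arrays. A further 9 genes exceeded background on some array without passing, and 23 genes did so on none. Each array showed 31 to 39 member genes above background, between 31 and 35 in control, 33 and 35 in TrbE10 and 32 and 39 in TrbE14.

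Among the sodium channel alpha subunits, 6 of 10 genes passed, among them Scn3a, Scn4a, Scn7a, Scn8a and Scn10a, and Scn1a, Scn2a1, Scn9a and Scn11a did not. All 4 sodium channel beta subunit genes passed. For the calcium channels, Cacna1c and Cacna1s passed among the 4 L-type alpha1 genes, Cacna1a among the 3 other high-voltage alpha1 genes, and all 3 T-type genes (Cacna1g, Cacna1h and Cacna1i). The 4 beta subunit genes passed together with Cacna2d1 and Cacna2d2 among 4 alpha2-delta genes, but only Cacng6 and Cacng7 among 8 gamma genes. The TRP families were represented by 3 of 7 TRPC genes, among them Trpc1 and Trpc2, by Trpm1, Trpm4 and Trpm7 among 8, and by Trpv2 and Trpv4 among 6, beside Trpc4ap, which encodes an adaptor protein that binds TRPC4 and is no channel.

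In the pacemaker family Hcn2 alone passed, among 4 genes. Hcn4, the main pacemaker channel of the sinus node, was not well above background on any of the 12 arrays, where its log2 signal lay between 2.47 and 2.64. Hcn3 was likewise above background on 0 of 12 arrays. By a more permissive test of the same software, which asks only whether a spot exceeds its local background, Hcn3 was positive on 7 arrays and Hcn4 on 0, and 57 member genes passed in place of 34. Of the 5 conduction system markers examined, Cntn2 and Hcn4 were on no array above background, while Gja5, Irx3 and Etv1 passed.

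**Figure D1:**
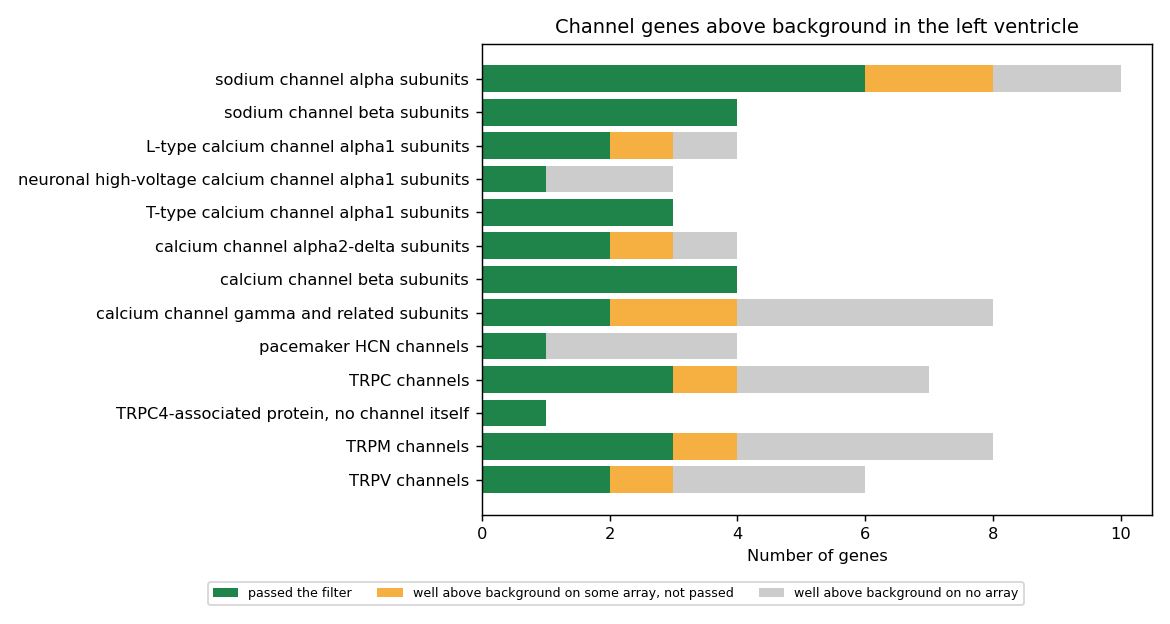
Number of member genes (horizontal axis) in each channel family (vertical axis), split by whether the gene passed the filter, was above background on some array without passing, or was above background on none of the 12 arrays. Families of auxiliary beta subunits are complete, whereas 1 of 4 HCN genes and 2 of 8 gamma subunit genes passed.

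In TrbE10 hearts 2 of the 34 kept genes changed at an adjusted p under 0.05, against a background of 2.15% of all 18021 kept genes and 1.69% of all kept probes. Of these, 1 fell (Scn10a), in a direction in which 0.788% of all genes were called, and 1 rose, in a direction in which 1.36% were called. Without adjustment, 14 of 46 member probes had a p under 0.05 (30.4%), where 16.4% of all probes did. The median log2 difference over member probes was -0.19, with 15 probes higher and 31 lower, beside a median of -0.02 over all probes. The 4 TrbE10 arrays lay wholly outside the 4 control arrays for 10 member probes (21.7%, against 10.1% of all probes). They lay above control for 4 probes, among them those of Scn3b, Scn7a and Trpm1. They lay below it for single probes of Scn10a, Cacna1g, Cacna2d1, Cacng6, Trpc2 and Trpc4ap. The Scn7a probe passed the filter only through the mutants, so its place above control supports nothing.

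In TrbE14 hearts limma called 0 of the 34 genes, against a background of 0.76% of genes (0.583% higher and 0.178% lower) and 0.602% of probes, and 7 of 46 probes (15.2%, against 13.6% of all probes) had an unadjusted p under 0.05. The median over member probes was -0.08 beside -0.03 over all probes. The member medians of TrbE10 and TrbE14 were both 0.01 when probes without detectable signal were included. Arrays did not overlap with control for 5 probes (10.9%, against 9.43%), 2 above, among them a Trpc2 probe, and 3 below, of Scn10a, Cacna1g and Cacng6. That Trpc2 probe passed the filter only through the mutants, so its place above control supports nothing. Set directly against TrbE14, TrbE10 arrays gave 0 called genes (0% of all genes) and 6 member probes with an unadjusted p under 0.05 (13.04%, against 5.76%). These arrays did not overlap for 3 member probes (6.52%, against 3.16%), of Cacna1i, Cacnb2 and Trpc4ap, all lower in TrbE10. The mutants were compared with the same controls, so their values are given side by side.

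**Figure D2:**
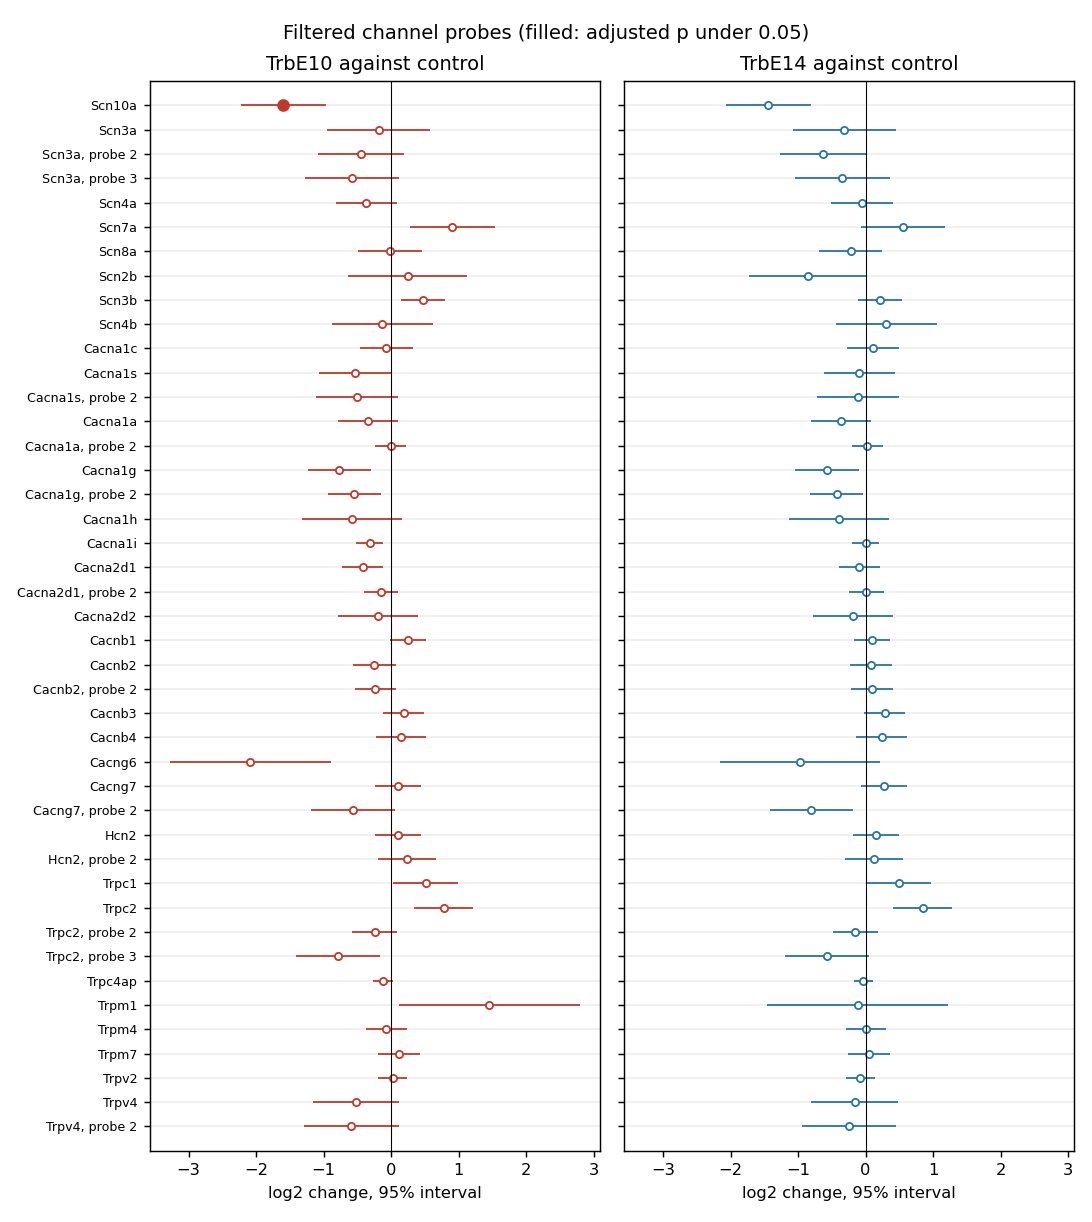
Log2 difference from control (horizontal axis) of each of 43 kept member probes in TrbE10 and TrbE14, with the 95% interval from limma and filled symbols where the adjusted p was under 0.05. Scn10a lies at -1.60 and -1.44 and Cacng6 (not well above background on 2 TrbE10 arrays) at -2.09 and -0.97, while most intervals include 0.

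Scn10a encodes the sodium channel Nav1.8, known best from sensory neurons and also expressed at low levels in the heart. Its probe, at chr9:119517585-119517644 on the minus strand of mm9, read 7.68, 7.84, 7.52 and 8.05 on the control arrays. On the TrbE10 arrays it read 6.91, 6.56, 5.35 and 5.86, and on the TrbE14 arrays 6.28, 6.58, 6.08 and 6.37. No mutant array reached the lowest control array, while the mutants overlapped with each other and TrbE10 spread more widely (SD 0.70, n = 4) than TrbE14 (SD 0.21, n = 4). Scn10a fell by 1.60 in TrbE10 (SE 0.29, 3.03-fold lower, adjusted p = 0.0208). In TrbE14 the log2 difference of -1.44 (SE 0.29, 2.72-fold lower) missed the threshold in the model of all 12 arrays (adjusted p = 0.0523). With the TrbE10 arrays left out of the model the difference was the same, its SE was 0.15, and it passed (adjusted p = 0.00869). Both fits compare arrays of the same slide.

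The call for Scn10a in TrbE10 was held in 16 of 20 alternative analyses, with adjusted p between 0.0075 and 0.0680. It was lost without the filter (0.0628), with only the arrays of these groups in the model (0.0649), without control replicate 4 (0.0680) and without TrbE10 replicate 4 (0.0586). With normexp background correction the log2 difference was -0.89 in TrbE10 and -0.96 in TrbE14. In TrbE14 the gene was called in 5 of 20 alternatives, with adjusted p between 0.00722 and 0.145. These were the fit on control and TrbE14 arrays alone, normexp (0.00722) and the authors' normalized values (0.0409). The others were the fits without TrbE10 replicate 1 (0.0259) or 3 (0.0160). Between the mutants the log2 difference was -0.16 (95% interval -0.78 to 0.47, adjusted p = 0.973). Neuron markers were measured beside it, since this channel is best known from neurons. Of 6 markers, 3 passed (Th, Dbh and Prph) and none was called. Their median log2 differences were -0.36 in TrbE10 and -0.25 in TrbE14, and the log2 of their summed signal ran from 11.17 to 11.54 in control, 10.74 to 11.86 in TrbE10 and 9.90 to 11.66 in TrbE14. The sum rests mainly on Dbh, the brightest of the 3 (mean 11.04, against 7.63 for Th and 5.07 for Prph). In the limma fit Dbh stood at 0.01 in TrbE10, while Th (-0.36) and Prph (-0.46) had an unadjusted p under 0.05. In TrbE14 none of the 3 had one. Chrna3 was above background on 0 of 12 arrays and Slc18a3 on 1. The part of neurons in the Scn10a signal was not tested.

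Scn11a, a further sodium channel of sensory neurons whose probe lies 145243 bases beyond that of Scn10a on the same chromosome, was not above background on any array.

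Scn3b, Scn4b and Scn7a were not called in either mutant group. Scn3b, the beta3 subunit, read 6.60, 6.77, 6.32 and 6.91 in control, 6.99, 7.06, 7.06 and 7.37 in TrbE10, and 7.06, 7.05, 6.64 and 6.72 in TrbE14. TrbE10 lay above control on every array, by 0.47 (adjusted p = 0.148), whereas TrbE14 overlapped with it at 0.22 (adjusted p = 0.530). Scn4b, the beta4 subunit, read 12.56, 12.87, 11.82 and 12.80 in control, 11.69, 12.78, 12.33 and 12.72 in TrbE10, and 12.15, 12.49, 13.40 and 13.23 in TrbE14. These groups overlapped throughout, with log2 differences of -0.13 (adjusted p = 0.883) and 0.31 (adjusted p = 0.699).

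Scn7a, which encodes a sodium-sensing relative of these channels, passed the filter only through the mutants. It was well above background on 0 of 4 control arrays and on 3 of 4 arrays in each mutant group. Control arrays read 4.75, 4.76, 3.57 and 4.38, TrbE10 arrays 5.01, 4.94, 5.61 and 5.53, and TrbE14 arrays 4.37, 5.18, 4.91 and 5.22. TrbE10 lay above control on every array and TrbE14 overlapped with it. Because the control signal was not well above background, folds were computed against a raised control level. That level is the dimmest signal well above background on each control array, or the probe's own signal where that was higher. Against it Scn7a was 1.44-fold higher in TrbE10 and 1.13-fold higher in TrbE14. These are no strict lower bounds, since mutant arrays that were not well above background are included. The fitted log2 differences, at measured signal, were 0.91 in TrbE10 (adjusted p = 0.145) and 0.55 in TrbE14 (adjusted p = 0.413). Over the alternatives they fell to 0.21 and 0.12. Neither passed the test.

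**Figure D3:**
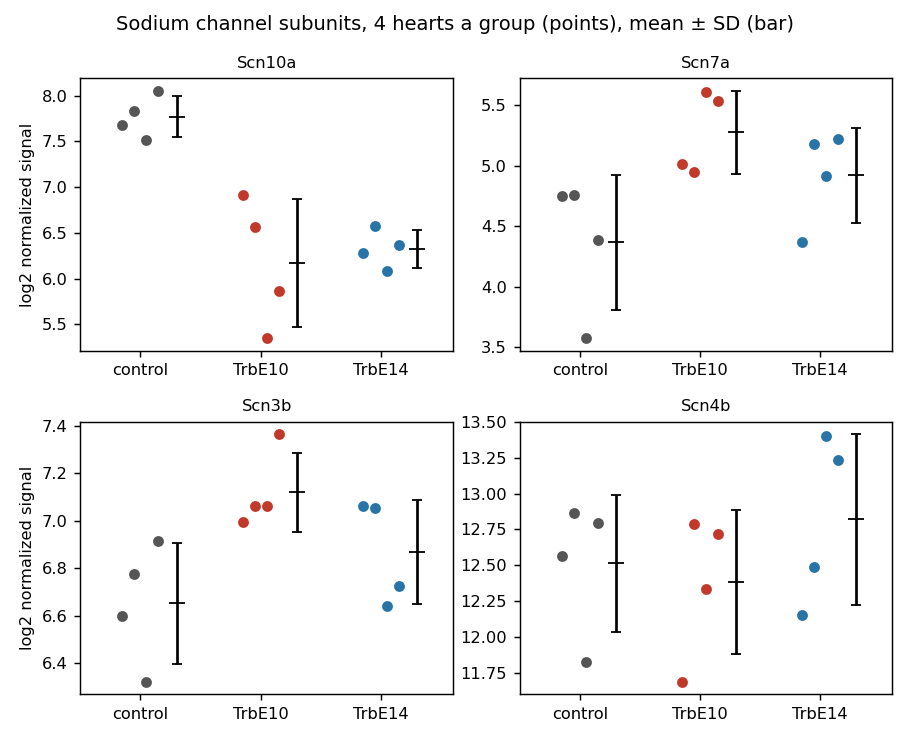
Quantile-normalized log2 signal (vertical axis) of 4 sodium channel genes on each array of the control, TrbE10 and TrbE14 groups, with points for arrays and bars for the mean and SD (n = 4). For Scn10a the control mean is 7.77 and the mutant means 6.17 and 6.33, and for Scn4b the groups overlap.

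Cacna1c encodes Cav1.2, the pore of the cardiac L-type calcium channel that triggers contraction. Control arrays read 7.18, 7.16, 7.18 and 7.29, TrbE10 arrays 7.33, 6.90, 7.24 and 7.06, and TrbE14 arrays 6.88, 7.20, 7.86 and 7.30. The groups overlapped, with log2 differences of -0.07 (95% interval -0.46 to 0.32, adjusted p = 0.877) and 0.11 (95% interval -0.28 to 0.50, adjusted p = 0.796), and both changed sign when single arrays were left out. Cacna1s, the L-type pore of skeletal muscle, gave -0.54 (adjusted p = 0.301) and -0.09 (adjusted p = 0.881) on its brighter probe, and -0.51 and -0.11 on the other. Its control arrays on the brighter probe read 11.40, 11.38, 11.47 and 12.04, its TrbE10 arrays 10.70, 11.17, 10.88 and 11.40, and its TrbE14 arrays 11.17, 11.03, 12.02 and 11.71. Skeletal muscle markers were near absent beside it, with Myh1, Myh2, Myh4, Mylpf, Actn3 and Ryr1 on 0 of 12 arrays above background and Tnnt3 passing.

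T-type calcium channels open at more negative potentials than L-type channels and are more abundant in embryonic ventricle and in pacemaker and conduction cells. Of their 7 probes 4 passed the filter, and these had a median log2 difference of -0.56 in TrbE10 and -0.41 in TrbE14. None was called. Cacna1g encodes Cav3.1, and its brighter probe, at chr11:94270459-94270518 of mm9, and its other probe, at chr11:94269863-94269922, lie on the minus strand. The open reading frame of the brighter probe ends in a stop codon, in capitals:
Cacna1g: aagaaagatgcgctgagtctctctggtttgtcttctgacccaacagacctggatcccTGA
The brighter probe read 8.77, 8.69, 8.96 and 9.19 in control, 8.73, 8.42, 8.27 and 8.003 in TrbE10, and 8.57, 8.81, 8.25 and 8.26 in TrbE14, so that 1 array of each mutant group reached into the control range. Its log2 differences were -0.55 (95% interval -0.94 to -0.15, adjusted p = 0.160) and -0.43 (95% interval -0.82 to -0.04, adjusted p = 0.332).

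The other Cacna1g probe read 6.99, 7.20, 6.88 and 7.47 in control, 6.81, 6.55, 5.95 and 6.15 in TrbE10, and 6.88, 6.77, 6.20 and 6.40 in TrbE14. All mutant arrays lay below all control arrays, in TrbE14 by less than the second decimal shows. The log2 differences were -0.77 in TrbE10 (adjusted p = 0.103) and -0.57 in TrbE14 (adjusted p = 0.288). In TrbE10 this probe was called in 0 of 20 alternatives, with adjusted p between 0.0686 and 0.253.

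Cacna1h encodes Cav3.2, the other main T-type channel of the heart. Of its probes only the brightest passed, and the others (means of 2.39 and 4.47) were above background on 0 and 1 of 12 arrays. The brightest read 6.59, 5.48, 6.85 and 7.21 in control, 6.48, 5.86, 5.47 and 6.02 in TrbE10, and 5.77, 6.07, 6.53 and 6.20 in TrbE14. Control arrays spread across both mutant groups, and the log2 differences were -0.58 (95% interval -1.32 to 0.17, adjusted p = 0.429) and -0.39 (95% interval -1.13 to 0.35, adjusted p = 0.619). Cacna1i (Cav3.3), looked at after its values were seen, gave -0.32 in TrbE10 (adjusted p = 0.105) and -0.00031 in TrbE14 (-0.077 to 0.051 over the alternatives), with a log2 difference between the mutants of -0.32 (adjusted p = 0.566). In the authors' normalized values Cacna1i was called in TrbE10.

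Markers of cells that use T-type channels were read alongside. The 3 detected conduction markers had median log2 differences of -0.06 in TrbE10 and 0.02 in TrbE14 and summed log2 signals of 10.75 to 11.31 in control, 10.84 to 11.33 in TrbE10 and 10.98 to 11.15 in TrbE14, with none called. Gja5 read -0.64 (adjusted p = 0.410) and -0.47 (adjusted p = 0.572), and the Cre allele sits in this gene. All 5 atrial markers passed, of which 2 rose in TrbE10 (Sln and Bmp10) and 1 in TrbE14 (Bmp10). Bmp10 read 2.36, 2.36, 2.35 and 2.37 in control and was above background on 8 of 12 arrays. It passed the filter only through the mutants, where it was high, so its calls lend the atrial list no support. The medians of 2.07 and 1.65 are the values of Nppa, which was not called (adjusted p = 0.0860 and 0.240). Myl4 (-0.09 and 0.09) and Myl7 (-0.12 and -0.00056), the atrial myosin light chains, were not called. Its summed log2 signals ran from 13.54 to 16.06 in control, 15.34 to 17.28 in TrbE10 and 16.24 to 16.54 in TrbE14. The part of these cells in the T-type values was not tested.

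Among the auxiliary calcium channel subunits, Cacng6 encodes the gamma6 subunit. Its probe, at chr7:3435518-3435577 on the plus strand of mm9, is printed because it lies in a cluster with Cacng7 and Cacng8, and its sequence, with no stop codon to mark, reads
Cacng6: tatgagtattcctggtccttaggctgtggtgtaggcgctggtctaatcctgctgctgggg
Control arrays read 6.71, 6.17, 6.89 and 6.51, TrbE10 arrays 5.37, 5.99, 3.08 and 3.49, and TrbE14 arrays 5.36, 5.58, 5.93 and 5.54. All mutant arrays lay below all control arrays, and TrbE10 replicates 3 and 4 were not well above background. With these 2 dim arrays at their measured signal, the fitted log2 difference was -2.09 in TrbE10 (95% interval -3.27 to -0.90, adjusted p = 0.0826), a size that rests on signal near background. It was -0.57 with normexp background correction (adjusted p = 0.0506). In TrbE14 the difference was -0.97 (adjusted p = 0.449, and 0.0739 with only control and TrbE14 arrays in the model). In TrbE10 it was called in 2 of 20 alternatives, in the authors' normalized values (-1.13, adjusted p = 0.0272) and without TrbE10 replicate 2 (-2.59, adjusted p = 0.0155), and its adjusted p ran from 0.0155 to 0.193.

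**Figure D4:**
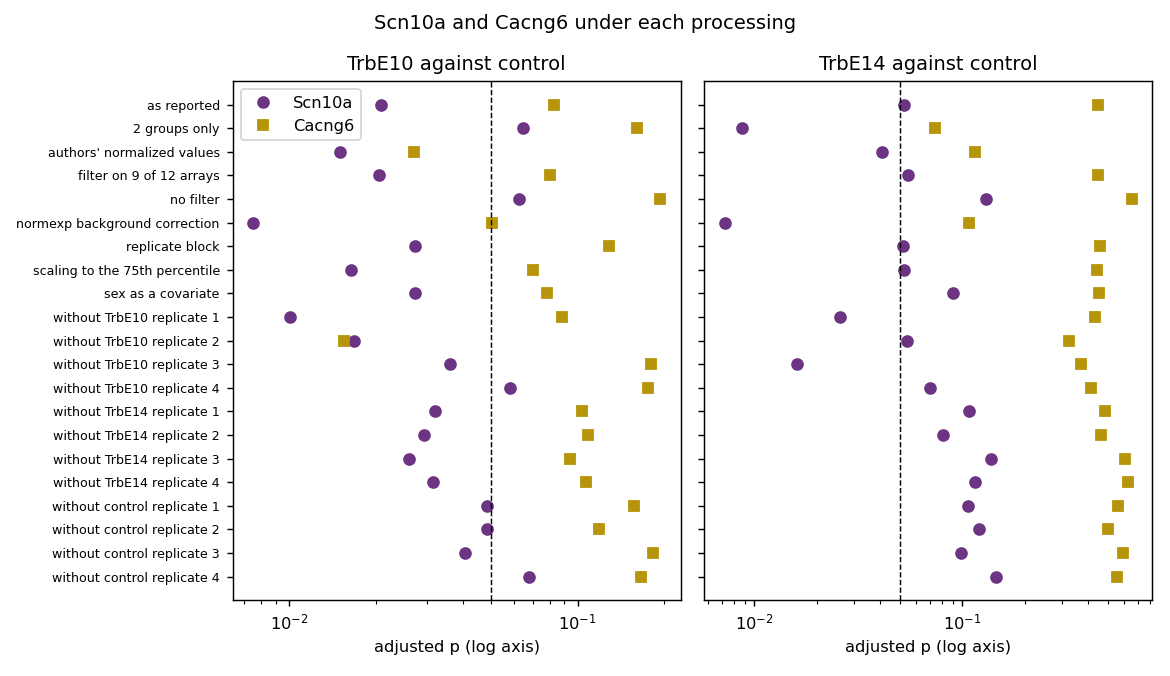
Adjusted p (log axis) of Scn10a and Cacng6 under each alternative processing, for TrbE10 and TrbE14 against control, with a dashed line at 0.05. In TrbE10 Scn10a sits between 0.0075 and 0.0680 and Cacng6 between 0.0155 and 0.193, on both sides of the line.

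None of the neighbours and partners of Cacng6 that passed the filter was called. Cacng7 (gamma7) was read by probes that disagreed, at 0.10 (adjusted p = 0.789) and -0.57 (adjusted p = 0.349) in TrbE10 and at 0.27 (adjusted p = 0.459) and -0.80 (adjusted p = 0.261) in TrbE14. The lower values are of the dimmer probe, which was above background on 4 control, 3 TrbE10 and 1 TrbE14 arrays. Cacng8, whose probe lies 20199 bases before that of Cacng6, did not pass the filter. Cacnb2, the main cardiac beta subunit that carries the L-type pore to the membrane, differed by -0.25 and -0.23 on its 2 probes in TrbE10 and by 0.08 and 0.10 in TrbE14, and by -0.33 on both between the mutants (adjusted p = 0.856). Cacna2d1, the alpha2-delta1 subunit, gave -0.15 (adjusted p = 0.552) and 0.01 (adjusted p = 0.971) on its brighter probe, and -0.43 (adjusted p = 0.151) and -0.09 on the dimmer one, where all TrbE10 arrays lay below control. Cacna1a, the pore of P/Q-type channels of nerve endings, stood at -0.0060 and 0.03 on its brighter probe and at -0.34 and -0.37 on the other.

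**Figure D5:**
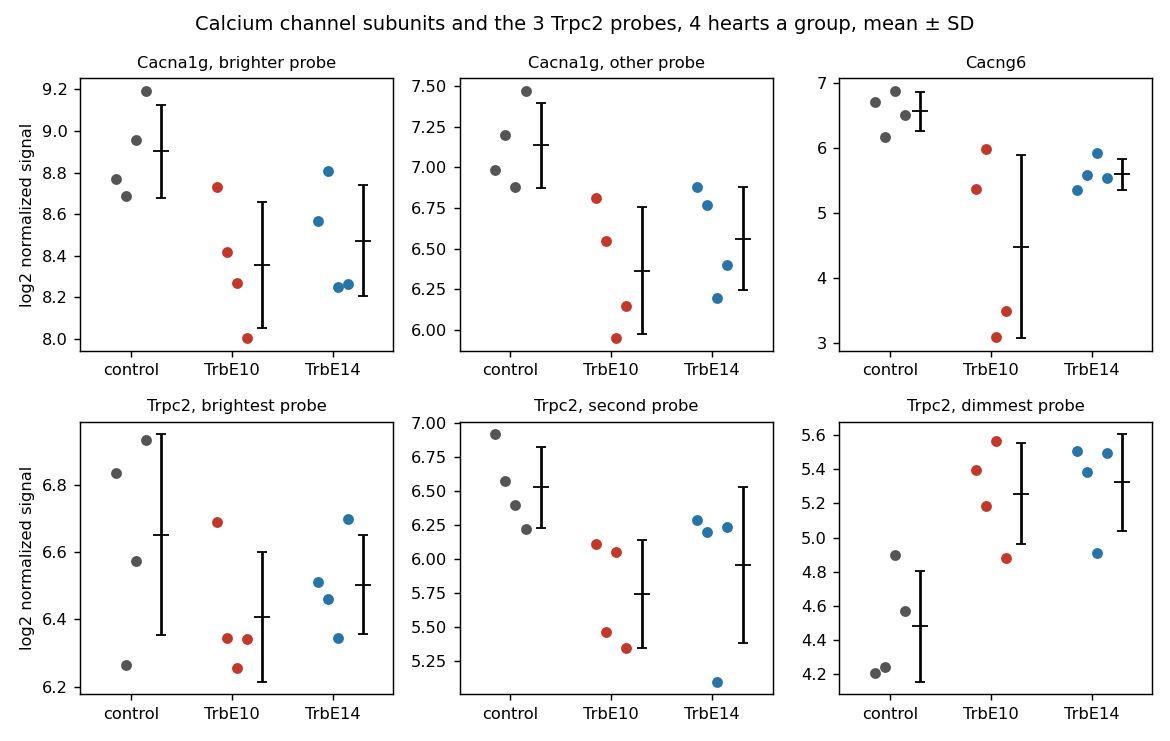
Quantile-normalized log2 signal (vertical axis) of both Cacna1g probes, of Cacng6 and of 3 Trpc2 probes on each array of the control, TrbE10 and TrbE14 groups, with points for arrays and bars for the mean and SD (n = 4). Cacng6 has a control mean of 6.57 and mutant means of 4.48 and 5.60 without a call, where the TrbE10 mean includes 2 arrays not well above background, and the dimmest Trpc2 probe reads higher in the mutants while the others read lower.

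Hcn2, an HCN channel known from ventricular muscle and from neurons, was the only pacemaker gene with values to compare. It read 11.78, 11.83, 11.96 and 12.07 in control, 12.29, 11.93, 12.20 and 11.64 in TrbE10, and 12.11, 11.95, 12.37 and 11.84 in TrbE14. The groups overlapped, with log2 differences of 0.10 (95% interval -0.24 to 0.45, adjusted p = 0.787) and 0.16 (95% interval -0.19 to 0.50, adjusted p = 0.671). Its other probe gave 0.23 (adjusted p = 0.601) and 0.12 (adjusted p = 0.796).

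Trpc2, a TRP channel of pheromone-sensing neurons in the mouse, was read by 3 probes that did not move together. The brightest gave -0.24 (adjusted p = 0.460) in TrbE10 and -0.15 (adjusted p = 0.677) in TrbE14. The second read 6.92, 6.57, 6.40 and 6.22 in control, 6.11, 5.47, 6.05 and 5.34 in TrbE10, and 6.29, 6.20, 5.10 and 6.24 in TrbE14. TrbE10 lay below control on every array, at -0.78 (adjusted p = 0.201), while TrbE14 reached into the control range at -0.57 (adjusted p = 0.397).

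The dimmest Trpc2 probe went the other way. It was above background on 0 of 4 control, 3 of 4 TrbE10 and 4 of 4 TrbE14 arrays and passed the filter through the mutants. Control arrays read 4.21, 4.24, 4.90 and 4.57, TrbE10 arrays 5.39, 5.18, 5.57 and 4.88, and TrbE14 arrays 5.51, 5.38, 4.91 and 5.49. Only TrbE14 lay above control on every array, since 1 TrbE10 array was just under the highest control array. Against a control level raised as for Scn7a, the fold was 1.60 in TrbE10 and 1.67 in TrbE14, again no strict bound. The fitted log2 differences were 0.78 in TrbE10 (adjusted p = 0.0807) and 0.84 in TrbE14 (adjusted p = 0.0992). Over the alternatives they fell to 0.21 and 0.11. Stop codons interrupt all 3 reading frames of the second and dimmest probes and none of the brightest.

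Other TRP genes carried wide or small differences. Trpm1 is a channel of melanocytes and retinal bipolar cells. Of its probes only the brightest passed, and the others (means of 2.39, 2.57 and 2.68) were above background on 0 of 12 arrays. The brightest read 7.50, 8.43, 7.60 and 6.45 in control, 9.67, 8.76, 8.50 and 8.87 in TrbE10, and 6.67, 9.34, 7.18 and 6.32 in TrbE14. TrbE10 lay above control on every array, at 1.45 (95% interval 0.11 to 2.79, adjusted p = 0.272), and TrbE14 spread across both groups at -0.12 (adjusted p = 0.943). The log2 difference between the mutants, 1.57, did not pass (adjusted p = 0.809). Trpv4, opened by swelling and stretch, gave -0.53 (adjusted p = 0.401) and -0.16 on its brighter probe and -0.59 and -0.24 on the other. Trpm7, a channel fused to a kinase that carries magnesium, gave 0.11 and 0.05, and Trpc4ap gave -0.12 (adjusted p = 0.383) and -0.03. Across families, 10 genes had several kept probes, whose signs were alike for 8 in TrbE10 (not for Cacng7 and Trpc2) and for 6 in TrbE14 (not for Cacna1a, Cacna2d1, Cacng7 and Trpc2). The longest run of bases shared by probes of different member genes was 14, between Scn4b and Trpm5.

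Partner proteins that bind or regulate these channels gave 1 call. Of 24 listed genes 18 passed, and Stim1 alone rose, in both mutants, while none fell. Stim1 senses calcium in the endoplasmic reticulum and opens store-operated channels. Its 2 probes share 51 bases at chr7:109585303-109585371 of mm9 and so are not independent readings. On the probe that starts first, control arrays read 9.77, 9.71, 9.68 and 9.87, TrbE10 arrays 11.49, 11.32, 11.70 and 11.54, and TrbE14 arrays 11.75, 11.18, 11.48 and 11.01. Every mutant array lay more than 1 log2 unit above every control array. Stim1 rose by 1.76 in TrbE10 (SE 0.15, adjusted p = 0.000253) and by 1.60 in TrbE14 (adjusted p = 0.000607). With only control and TrbE14 arrays in the model the TrbE14 rise had an adjusted p of 0.00744. The other probe gave 1.81 and 1.56.

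The other partners that passed were not called. Orai1, the pore of that store-operated channel, stood at -0.13 in TrbE10 and -0.01 in TrbE14. Fgf13, an intracellular growth factor homologue that binds the tails of sodium channels, gave -0.36 in TrbE10 (adjusted p = 0.126). The medians over the partners were -0.14 and -0.09, and Fgf14, Rem2, Stac, Stac2, Pex5l and Kcne2 did not pass the filter. Of 10 related cation channels outside the families above, Tpcn1, Mcoln1, Pkd2 and Pkd2l2 passed and none was called, with medians of 0.01 and 0.06.

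Markers of other cells of the ventricle were measured beside these values. Of 7 macrophage markers 3 rose in TrbE10 and 1 in TrbE14 (medians 0.61 and 0.26), and their summed log2 signal ran from 13.13 to 13.40 in control, 13.97 to 14.22 in TrbE10 and 13.80 to 13.92 in TrbE14. Of 6 fibroblast markers 1 rose in each (medians 0.43 and 0.42), with sums of 16.06 to 16.21, 16.39 to 16.65 and 16.47 to 16.69. The summed signals of both lists did not overlap between mutant and control arrays, whereas single markers such as Lum, Pdgfra, Mrc1 and Cd163 did. In TrbE14 Lum (-0.14) and Mrc1 (-0.06) read lower, and the other markers of these lists read higher. No marker of working ventricular cardiomyocytes (6 of 6 passed), endothelium (6 of 6), smooth muscle (5 of 5), Schwann cells (3 of 6), skeletal muscle (1 of 7) or the circadian clock (8 of 9) was called. The smooth muscle median was 0.01 in TrbE10 and 0.75 in TrbE14, where 3 of the 5 genes had an unadjusted p under 0.05. Whether these cells contribute to the channel values, or to Stim1, which also rose in both mutants, was not tested.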

How the data were processed

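Left ventricular RNA of 12 mice was measured on 12 one-colour arrays. The authors deposited scanner output (Agilent Feature Extraction 10.5 per the labels' processing notes), in which each spot's processed signal is a background-subtracted intensity. Flag columns are other values deposited with it. The authors also deposited log2 values, quantile normalized and filtered on background (19800 probes, 46 of them members), used as an alternative.

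Processed signals were log2-transformed without control and outlier-marked spots, quantile normalized and averaged per probe with limma 3.58.1 (R 4.3.3). Probes well above background on 75% of the arrays (3 of 4) of any group were kept (24593). A limma model with 1 mean per group (9 residual and 2.19 prior degrees of freedom) was fitted, and p-values were Benjamini-Hochberg adjusted over all kept probes, with the threshold at 0.05. A gene was called when any of its probes was. The fit was tested on simulated data. The number of arrays limits the precision. Summed marker levels use the probe with the highest mean of each gene.

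Genes were named when called, when the study examined them as ion channels (such as Cacna1c, Cacna1g, Cacna1h and Hcn4), when they had the highest control mean in their family, or when an unadjusted p under 0.05 came with no overlap between the mutant and the control arrays. Some genes are counted here but not reported by name. Members, lists and tests were chosen with earlier results of these data known. The alternatives tried were normexp (offset 50), 75th percentile scaling, a filter on 9 of 12 arrays or none, the authors' values, only the groups compared, the replicate number as a block, sex as a covariate (read from the arrays, and unbalanced, since Y-linked probes gave signal on 1 control array, 2 TrbE10 arrays and 3 TrbE14 arrays), and leaving out each array. Coordinates and sequences are those the array files and reference tables give for mm9. Exon and UTR annotation of that build was not used here.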

Additional observations from a re-analysis of the deposited data

Results flagged for a closer look

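Among 66 groups of 4 arrays examined over the named genes, 1 held an array far from the other 3, where chance gives about 1 in 20. On the brighter probe of Cacna1s, the L-type pore of skeletal muscle, control replicate 4 read 12.04, the next control array 11.47 and the lowest 11.38, so that its gap was 0.866 of the range of the group.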

How the results depend on the processing

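In TrbE10 the count of called member genes, 2, became 0 without the filter, 4 with the authors' normalized values (among them Cacna1i, Cacng6 and Scn10a), 0 with only the compared groups and 3 with sex as a covariate (among them Scn10a and Trpc2), and ran from 0 to 3 when single arrays were left out, with 0 without control replicate 4 and 3 without TrbE10 replicate 2. In TrbE14 it went from 0 to 1 with normexp, with the authors' values and with only the compared groups (Scn10a each time) and with sex (Trpc2), and from 0 to 1 when arrays were left out (Scn10a without TrbE10 replicate 1 or 3). Between the mutants it was 0 in each alternative run. Calls over all probes moved too. In TrbE10 416 of 24593 became 197 of 55681 without the filter and 507 of 19800 with the authors' values. They were 263 with only the compared groups, 595 with sex, 187 without control replicate 4 and 715 without TrbE10 replicate 2. In TrbE14 148 became 240 with normexp, 160 with the authors' values, 141 with only the compared groups and 181 with sex. Without TrbE10 replicate 1 or 3 they were 131 and 155. The Trpc2 calls with sex are of its dimmest probe, which was kept only through the mutants, and support nothing. Without the filter 55681 probes were adjusted for in place of 24593. The causes were not tested.

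The replicate numbers did not pair the hearts. Same-numbered arrays had correlations of their deviations between -0.24 and 0.48 (median -0.05, 12 pairs), and others between -0.52 and 0.40 (median 0.04). With the replicate block 1 member gene was called in TrbE10 (Scn10a) and 0 in TrbE14, where 316 and 146 of all 24593 probes were called.

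The member median without the filter was 0.0094 in TrbE10 and 0.010 in TrbE14. Over left-out arrays it spanned -0.22 to -0.12 in TrbE10, and -0.082 to -0.0087 in TrbE14. The median of all probes in TrbE10 was -0.08 under percentile scaling and 0.0079 without the filter, beside -0.02 as reported. Of 978 recomputed values of named genes, 926 kept direction and side of the threshold, 15 lost the call, 7 gained one and 30 changed sign. Sign changes were at small values: Scn10a between the mutants 0.073 with normexp, Cacna1a in TrbE10 0.028 with normexp and 0.044 with the authors' values, Cacna1a in TrbE14 -0.016, Cacna2d1 in TrbE14 -0.032 and Trpm7 in TrbE14 -0.049 with sex, and Cacna2d1 in TrbE14 -0.047 under percentile scaling. Over left-out arrays the values that changed sign ran, in TrbE10, from -0.045 to 0.051 for Cacna1a, -0.14 to 0.0061 for Cacna1c, -0.024 to 0.21 for Cacng7 and -0.36 to 0.099 for Scn4b, and in TrbE14 from -0.025 to 0.093 for Cacna1a, -0.072 to 0.25 for Cacna1c, -0.27 to 0.064 for Cacna1s, -0.060 to 0.061 for Cacna2d1, -0.0038 to 0.19 for Cacnb2, -0.77 to 0.23 for Trpm1 and -0.031 to 0.14 for Trpm7. Scn10a between the mutants ran from -0.40 to 0.12. With the permissive detection test 57 genes passed. Signals near background, such as those of Scn7a and the dimmest Trpc2 probe, leave the size of any fold uncertain.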
